A study of Glycine max with 72 samples.

Results

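The genes described here are the 200 soybean genes whose RNA was furthest above the sister line in both *mips1* lines once the radicle had emerged. They were chosen from the 12 stage 3 libraries of the lines SoyV, SoyE, ABB and BAA. Counts were scaled to a library total of 1e6 (CPM), the 3 libraries of a line were averaged, and 25551 of the 56044 genes in the tables with a mean of at least 2 CPM were kept. For each kept gene the log2 ratio of SoyV over SoyE and that of ABB over BAA were taken after adding 1 CPM, and the 200 genes with the highest smaller ratio were selected. Those stage 3 values therefore chose the genes, are given below as a description, and have no test. The other 60 of the 72 libraries were not used by the choice.

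The study compared *lpa* lines, which carry mutations that lower seed phytic acid, with normal phytic acid lines during germination. SoyV is labelled mips1 and SoyE MIPS1, and both belong to the Mips subset, from a cross of Essex with a *mips1* donor. The description of the data set names the sister lines *1mlpa* and 1MWT for them, although the short labels might instead mean the parents crossed. ABB (mips1/mrp-l/mrp-n, also called *3mlpa*) and BAA (MIPS1/MRP-L/MRP-N, also called 3MWT) form the Mips-MRP subset, from CX-1834 and the same donor. The MRP subset comes from a cross of the same parents and consists of *2mlpa* (MIPS1/mrp-l/mrp-n) and its sisters 2MWT (MIPS1/MRP-L/MRP-N), 2MWT-L (MIPS1/MRP-L/mrp-n) and 2MWT-N (MIPS1/mrp-l/MRP-N). Within a subset each genotype is represented by 1 line, so a mutation and any other difference between 2 sister lines cannot be told apart. Every line had 3 replicates of 10 seeds as dry seeds (stage 1), after 8 h of imbibition (stage 2) and at radicle emergence (stage 3), the time of which is not given in the sources used here. Seed coats and radicles were removed at stages 2 and 3. Replicates are separate seed samples of a line, and p-values measure the spread between those samples only.

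MIPS1 encodes the enzyme that makes *myo*-inositol phosphate from glucose 6-phosphate, the first step towards phytic acid, and MRP-L and MRP-N encode ABC transporters that move phytic acid into storage. Germinating seeds restart respiration inside dense, wet tissue in which oxygen runs short, and pyruvate decarboxylase together with alcohol dehydrogenase or lactate dehydrogenase then regenerates NAD+ by fermentation. The emerging axis also needs its cell walls loosened and its sugar, nitrogen and sulphur reserves moved, while abscisic acid holds germination back. Gene roles below are those of the closest Arabidopsis gene in the study's supplementary annotation, which covers 94 of the 200 genes and was made for genes the study had picked from these libraries. Counts of homologs are therefore descriptive. Genes named only for such a role were chosen after their values had been seen, as was the grouping by role.

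Library totals lay between 20295984 and 39759526 counted read pairs in 71 libraries (median 28412327), and replicate 1 of 2MWT-N at stage 2 had 12679. That library was kept in the fits and left out of the plots by stage. Replicate 3 of 2MWT at stage 3 stood apart from the rest of its line in the genes described here. Several results that rest on it are given with and without it. The stage 3 comparison of *2mlpa* with the mean of its sisters is given only with it. So are the stage 3 counts of genes with *2mlpa* above or below all sister libraries. Replicate 2 of BAA at stage 1 had counts for 24686 genes, against at least 30065 in the other 70 libraries. Over all kept genes the median log2 CPM ratio at stage 3 was -0.06 for SoyV over SoyE and -0.15 for ABB over BAA. The deepest such shift at an earlier stage of these pairs was -0.24 at stage 2 of SoyV over SoyE, which the TMM scaling of the fits removes. The *mips1* allele is a point mutation that counts per gene do not read. MIPS1 itself (Glyma.11G238800) is not among the 200 and had 8.74, 10.2 and 7.32 CPM in SoyV seeds at stage 3, against 3.29, 4.67 and 3.55 CPM in SoyE seeds. In ABB seeds it had 6.10, 8.80 and 10.6 CPM, against 9.29, 6.09 and 6.27 CPM in BAA seeds.

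Some marker lists outside the 200 genes moved with the lines at stage 3. The summed level of the 6 other genes of a list of ABI5 and late embryogenesis abundant genes, which mark maturing and dry seeds, was 1328 to 1652 CPM in SoyV seeds, against 379.6 to 1009 CPM in SoyE seeds. It was 1990.0 to 2788 CPM in ABB seeds, against 1172 to 1539 CPM in BAA seeds. The 18 annotated heat shock genes summed to 456 to 645 CPM in SoyV seeds, against 279.8 to 327 CPM in SoyE seeds, and to 416 to 539 CPM in ABB seeds, against 285 to 324 CPM in BAA seeds. Root genes, which would mark left-over radicle tissue, rested on 3 genes and summed to 97.0 to 124 CPM in SoyV seeds, against 54.9 to 71.8 CPM in SoyE seeds, and to 72.1 to 132 CPM in ABB seeds, against 70.0 to 87.6 CPM in BAA seeds. A list of storage and oil body genes, which define seed tissue, rested on 3 genes and summed to 112 to 143 CPM in SoyV seeds, against 39.9 to 92.7 CPM in SoyE seeds, and to 179 to 228 CPM in ABB seeds, against 105 to 112 CPM in BAA seeds. Not every list stood higher in the *mips1* lines. Another list of 4 seed storage genes, taken from the study's text, summed to 77.9 to 100.3 CPM in SoyV seeds, against 117 to 142 CPM in SoyE seeds, and to 125 to 553 CPM in ABB seeds, against 109 to 176 CPM in BAA seeds, which overlapped. The 7 annotated photosynthesis genes summed to 174 to 211 CPM in SoyV seeds, against 169 to 188 CPM in SoyE seeds, which overlapped, and to 108 to 151.1 CPM in ABB seeds, against 151.5 to 219 CPM in BAA seeds. The part of these lists in the results was not tested. In whole-tissue RNA, fewer cells of a type and less RNA per cell cannot be told apart.

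At stage 3 the 200 genes stood apart from their sister line by a median log2 ratio of 2.33 in the Mips subset and of 2.87 in the Mips-MRP subset. The ratios ran between 1.77 and 4.77 for SoyV over SoyE and between 1.77 and 6.03 for ABB over BAA, and the Mips-MRP ratio was the larger for 149 genes. By median over the genes, the level was 4.35, 4.76 and 5.29 on the log2(CPM + 1) scale in the SoyV libraries, against 1.63, 2.03 and 2.59 in the SoyE libraries. It was 5.55, 5.64 and 5.58 in the ABB libraries, against 2.34, 2.51 and 2.53 in the BAA libraries. Neither pair of lines overlapped in this median. Together the 200 genes took 1.17% to 2.14% of all counts in SoyV seeds, against 0.186% to 0.375% in SoyE seeds, and 2.17% to 3.13% in ABB seeds, against 0.375% to 0.384% in BAA seeds.

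**Figure D1:**
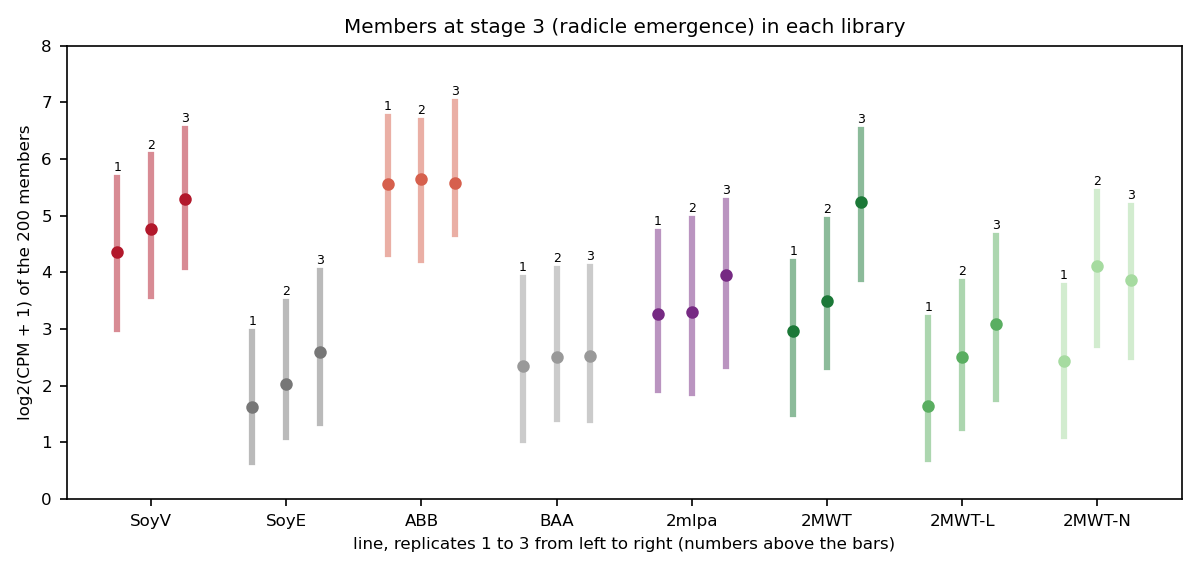
Level of the 200 genes at stage 3 in each of 24 libraries, with the line and replicate on the x axis and log2(CPM + 1) on the y axis; dots are medians over the genes and bars run from the 25% to the 75% quantile of the genes. The medians of SoyV (4.35 to 5.29) and ABB (5.55 to 5.64) lie above those of SoyE and BAA, and 2MWT replicate 3 (5.24) lies above the other 2 libraries of its line.

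The CPM of all 3 SoyV libraries lay above those of all 3 SoyE libraries for 198 of the 200 genes, against 23% of all kept genes, and those of ABB above those of BAA for 199, against 14.8% of all kept genes. For 0 genes did a *mips1* line lie below its sister, against 28.8% of kept genes in SoyV and 29.8% in ABB. These counts follow from the choice. The exceptions were Glyma.08G211000 and Glyma.08G174900 in the Mips subset and Glyma.02G059500 in the Mips-MRP subset. At the edge of the choice, the last 3 genes taken were Glyma.01G131800 with ratios of 1.88 in the Mips subset and 1.77 in the Mips-MRP subset, Glyma.09G150400 with 1.77 and 4.44, and Glyma.11G096700 with 2.33 and 1.77. The first 3 left out were Glyma.U027300 with 1.77 and 3.38, Glyma.10G081700 with 1.78 and 1.77, and Glyma.10G018800 with 1.75 and 3.13. The genes next to the edge thus differed by hundredths of a log2 unit in their smaller ratio.

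Dry and imbibed seeds of the same 4 lines gave the first measurements that the choice had not used. With the study's thresholds, a gene was a DEG where its false discovery rate (FDR) was below 0.01 and its log2 fold change was beyond 1 in either direction. The test was the quasi-likelihood test of edgeR with Benjamini-Hochberg adjustment over all tested genes, whereas the study used DESeq2. Of the 200 genes, 63 were higher in SoyV than in SoyE dry seeds, or 31.5%, against 4.34% of all genes tested. In imbibed seeds 30 were higher in SoyV, or 15%, against 1.98% of all genes. In ABB dry seeds 28 were higher than in BAA, or 14.0%, against 2.79%, and in imbibed seeds 13 were, or 6.5%, against 0.371%. No gene of the 200 was lower in SoyV at either stage by edgeR, where 4.03% and 1.57% of all genes were. At an unadjusted p under 0.05 there were 3 lower genes at stage 1, against 17.8% of all genes, and 0 at stage 2, against 13.4%. DESeq2 called 1 gene lower in SoyV at stage 1 and 0 at stage 2. In ABB 1 gene, Glyma.11G236600, was lower at stage 1, against 1.17% of all genes, and 0 were lower at stage 2, against 0.425%. At stage 2 of ABB 1 was lower at an unadjusted p under 0.05, against 6.08% of all genes, and 0 by DESeq2.

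Estimates over the 200 genes, with or without a call, lay above those over all genes. The median log2 fold change of SoyV over SoyE was 1.21 over the 200 genes in dry seeds and 0.91 in imbibed seeds, against -0.03 over all genes at each stage. For ABB over BAA it was 0.86 in dry seeds, against 0.15 over all genes, and 0.91 in imbibed seeds, against -0.01. The estimate was above 0 for 153 genes in SoyV dry seeds, against 47.1% of all genes, and for 192 in SoyV imbibed seeds, against 47.9%. It was above 0 for 139 in ABB dry seeds, against 57.6%, and for 176 in ABB imbibed seeds, against 49.5%. The 3 SoyV libraries lay above the 3 SoyE libraries in CPM for 87 genes at stage 1, against 9.06% of kept genes, and for 90 at stage 2, against 9.46%. The ABB libraries lay above the BAA libraries for 36 genes at stage 1, against 5.09%, and for 109 at stage 2, against 10.6%. The SoyV libraries lay below those of SoyE for 4 genes at stage 1, against 16.5%, and for 3 at stage 2, against 32.7%, and the ABB libraries below those of BAA for 5, against 8.48%, and for 6, against 29.2%. Listed after their values were seen, Glyma.13G242100 and Glyma.15G071300 were below in both lines in dry seeds, Glyma.20G222000 and Glyma.01G225100 in SoyV, and Glyma.09G063300, Glyma.10G013700 and Glyma.11G236600 in ABB, while Glyma.18G290300, Glyma.10G065400 and Glyma.13G176600 were below in SoyV imbibed seeds. On the unscaled CPM of dry seeds the median log2 ratio of the 200 genes was 0.30 for SoyV over SoyE and 0.20 for ABB over BAA, since many of them were near 0 CPM in dry seeds and the added 1 CPM shrinks such ratios.

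The early counts depended on which libraries entered the fit. When the 6 stage 1 libraries of ABB and BAA were fitted alone, edgeR called 0 of the 123 genes that could be tested and 0.0206% of all genes, with 44 of the 123 higher at an unadjusted p under 0.05, against 6.96% of all genes. In the fit over 3 stages the share of 14.0% became 9.0% without BAA stage 1 replicate 2, the library with few detected genes, and 7.5% without BAA stage 1 replicate 1. Of the imbibed counts, the 15% in SoyV became 9.5% without SoyE stage 2 replicate 2, 7.5% without SoyE stage 2 replicate 3 and 8.5% without SoyV stage 2 replicate 3. The 6.5% in ABB became 2.0% and 2.5% without BAA stage 2 replicates 2 and 3, 2.5% and 4.0% without ABB stage 2 replicates 2 and 3, and 11.5% without ABB stage 1 replicate 2. Each share left after leaving out 1 library lay above that of all genes in the full fit. The single-gene calls of higher RNA in ABB dry seeds given below rest on the fit over 3 stages, which includes stage 3 libraries of the choice. The 6 stage 1 libraries alone gave none of them. A call kept with each library left out in turn can thus be lost when a comparison is fitted alone.

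**Figure D2:**
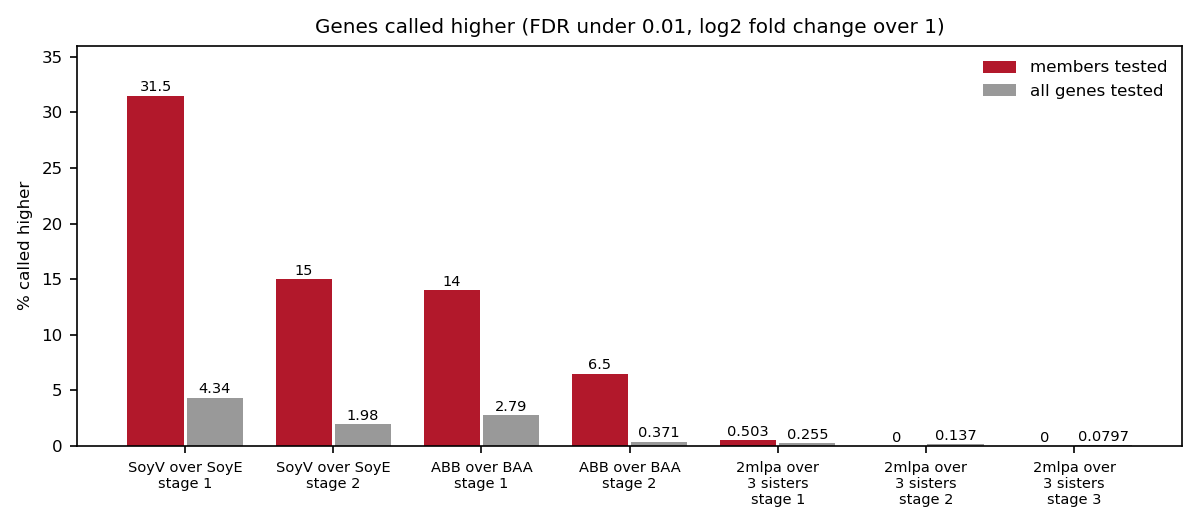
Share of genes called higher (y axis, %) in 7 comparisons (x axis) that the choice did not use, with red bars for those of the 200 genes that were tested and grey bars for all genes tested. The share is 31.5% against 4.34% in SoyV dry seeds and 6.5% against 0.371% in ABB imbibed seeds. For *2mlpa* over all 3 of its sister lines it is at most 0.503%, against 0.255%, at stage 1. Those bars need a call in 3 comparisons at once, a stricter condition than the 1 comparison of the other bars. Against the mean of the sisters, which is not drawn, the stage 1 share was 14.1%, against 3.23% of all genes.

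In dry seeds 15 of the 200 genes were DEGs in both *mips1* lines, against 0.613% of all genes, and 4 in imbibed seeds, against 0.0587%. Since none was lower in SoyV, 0 were lower in both lines at stage 1, against 0.163%, or at stage 2, against 0.101%. The 4 genes of imbibed seeds were a sulfate transporter homolog, a phenylcoumaran benzylic ether reductase, a pectin methylesterase and an expansin-like gene, which are described with their groups.

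Genes of fermentation and of the response to low oxygen formed a large named group. Of the 22 kept homologs of such Arabidopsis genes, 12 were among the 200, against 0.783% of all kept genes, and 20 of the 22 had both stage 3 ratios above 0, against 26.5% of kept genes. The groups described from here on were put together with the members known, and 10 of the 14 Arabidopsis genes listed for this one, and all of those listed for the other groups, have a homolog among the 200, so such shares follow from how the lists were made. In a separate list made from product names, all 3 kept genes, both PDC4 homologs and the hypoxia-induced Glyma.02G259700, were among the 200. Of the 12, 5 were DEGs in SoyV dry seeds (the homologs of HRA1, PDC1 and SAD6 and both of PFK3) and 3 in ABB dry seeds (those of ACO1, of 1 PFK3 and of the hypoxia-induced gene). Over all genes 4.34% were higher in SoyV and 2.79% in ABB dry seeds, and over the 200 genes 31.5% and 14.0%. The SoyV call of the SAD6 homolog Glyma.14G121400 (log2 fold change = 1.22, edgeR FDR = 0.0079) was lost without any of 9 of the 18 libraries, with an FDR of up to 0.048 without SoyV stage 1 replicate 1. In imbibed seeds edgeR called 0 in SoyV, against 1.98% of all genes, and 0 in ABB, against 0.371%. At an unadjusted p under 0.05, 7 were higher in SoyV, against 13.9% of all genes, and 6 in ABB, against 6.61%. Of all 200 genes, 102 were higher at that p in each line. DESeq2 called 1 of the 12 in SoyV and 0 in ABB.

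Pyruvate decarboxylase takes carbon out of pyruvate to make the acetaldehyde of ethanol fermentation, and 3 homologs were among the 200. Glyma.01G118000 (PDC4 homolog, chromosome 1, 40666204 to 40669741 in Wm82.a2.v1) had 55.9, 60.2 and 132 CPM in SoyV seeds, against 0.704, 1.89 and 3.63 CPM in SoyE seeds at stage 3. In the Mips-MRP subset it had 55.01, 74.7 and 101 CPM in ABB seeds, against 1.88, 1.89 and 2.399 CPM in BAA seeds. Its log2 ratios were 4.76 in the Mips subset and 4.67 in the Mips-MRP subset, the second highest smaller ratio of all. At 8 h of imbibition the same gene had 12.3, 13.9 and 20.5 CPM in SoyV imbibed seeds, against 5.32, 5.78 and 6.902 CPM in SoyE imbibed seeds (log2 fold change = 1.65 ± 0.45 (SE), edgeR FDR = 0.022), a difference that did not pass the threshold. Its mean CPM was higher at stage 3 than at stage 2 in SoyV and ABB and lower in SoyE and BAA.

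The other PDC4 homolog, Glyma.03G055100 (chromosome 3, 7561669 to 7566253), had 104, 114 and 309 CPM in SoyV seeds, against 2.57, 5.202 and 15.8 CPM in SoyE seeds at stage 3, and 80.3, 135 and 145 CPM in ABB seeds, against 2.49, 2.71 and 3.52 CPM in BAA seeds. Its libraries did not overlap between sister lines at emergence, whereas at stage 2 they did, with 21.6, 15.8 and 26.3 CPM in SoyV imbibed seeds, against 15.2, 30.5 and 18.3 CPM in SoyE imbibed seeds. The PDC1 homolog Glyma.07G153100 (chromosome 7, 18684000 to 18687256) had 808, 879.8 and 1346 CPM in SoyV seeds, against 91.8, 197 and 247 CPM in SoyE seeds at stage 3. In the Mips-MRP subset the PDC1 homolog had 657, 1505 and 1166 CPM in ABB seeds, against 259, 260.1 and 255 CPM in BAA seeds. It differed already in dry seeds, with 168, 162 and 138 CPM in SoyV dry seeds, against 48.7, 62.3 and 55.6 CPM in SoyE dry seeds (log2 fold change = 1.74 ± 0.30 (SE), edgeR FDR = 0.00047). In ABB dry seeds it had 84.9, 162 and 51.8 CPM, against 32.02, 42.8 and 74.2 CPM in BAA seeds (log2 fold change = 1.21 ± 0.35 (SE), edgeR FDR = 0.029), which overlapped and did not pass.

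Homologs among the 200 of enzymes that act on pyruvate or on the acetaldehyde made from it showed the same order of lines. The alcohol dehydrogenase ADH1 homolog Glyma.04G213900 (chromosome 4, 48558152 to 48562318) had 17.7, 26.6 and 47.6 CPM in SoyV seeds, against 0.402, 3.49 and 4.52 CPM in SoyE seeds, and 11.5, 48.7 and 45.8 CPM in ABB seeds, against 3.01, 7.92 and 4.03 CPM in BAA seeds. The lactate dehydrogenase homolog Glyma.01G210400 (chromosome 1, 54170359 to 54172571) had 6.29, 17.2 and 20.6 CPM in SoyV seeds, against 0.402, 1.995 and 1.17 CPM in SoyE seeds, and 21.04, 16.1 and 32.1 CPM in ABB seeds, against 0.388, 1.78 and 1.41 CPM in BAA seeds. Neither was a DEG at stages 1 or 2 in these lines. A second lactate dehydrogenase homolog, Glyma.05G058100, had stage 3 ratios of 1.76 in the Mips subset and 0.77 in the Mips-MRP subset and was not among the 200. Another ADH1 homolog, Glyma.13G035200, had ratios near 0, of 0.055 in the Mips subset and 0.34 in the Mips-MRP subset, and was not among the 200 either.

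**Figure D3:**
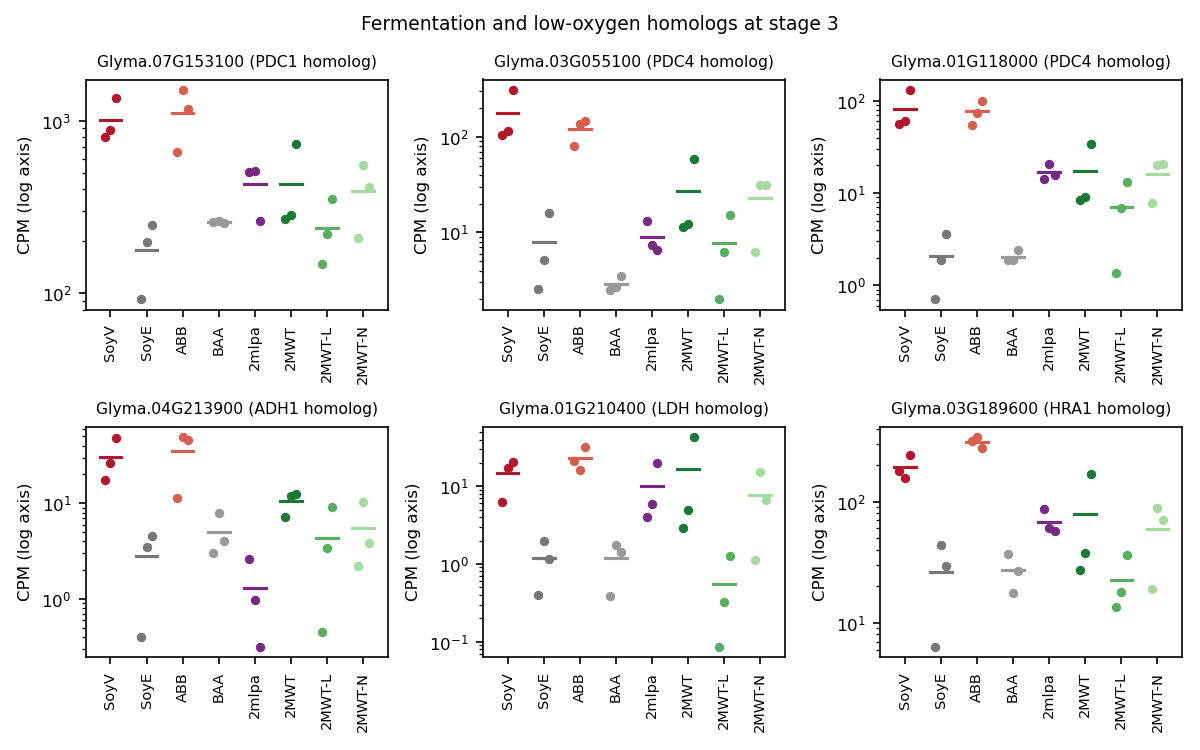
CPM at stage 3 (y axis, logarithmic) of 6 homologs of fermentation and low-oxygen genes in 8 lines (x axis), with points for the 3 libraries of a line and a bar for their mean. In each panel the SoyV points lie above the SoyE points and the ABB points above the BAA points, and for the ADH1 homolog the *2mlpa* points (0.315 to 2.64 CPM) lie below all 3 points of 2MWT.

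HRA1 is a trihelix factor that in Arabidopsis restrains the low-oxygen response, and its homolog Glyma.03G189600 was the group's DEG with the largest fold change in SoyV dry seeds. It had 44.8, 55.9 and 29.4 CPM in SoyV dry seeds, against 1.85, 4.78 and 5.12 CPM in SoyE dry seeds (log2 fold change = 3.76 ± 0.49 (SE), edgeR FDR = 3.4e-05). The libraries did not overlap, and the call was kept with each library left out in turn. In ABB dry seeds it had 12.7, 45.1 and 8.47 CPM, against 0.863, 7.44 and 8.24 CPM in BAA seeds (log2 fold change = 2.07 ± 0.51 (SE), edgeR FDR = 0.013). At stage 3 it had 180.5, 157 and 243 CPM in SoyV seeds, against 6.31, 43.5 and 29.2 CPM in SoyE seeds, and 318, 338 and 279 CPM in ABB seeds, against 37.1, 17.7 and 26.9 CPM in BAA seeds.

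Glyma.02G259700 resembles an Arabidopsis gene induced by low oxygen that encodes a mitochondrial membrane protein. It had 563, 360.4 and 1188 CPM in ABB dry seeds, against 47.6, 44.5 and 94.98 CPM in BAA dry seeds (log2 fold change = 4.14 ± 0.60 (SE), edgeR FDR = 0.00042). In SoyV dry seeds it had 849, 828 and 453 CPM, against 304, 97.8 and 86.2 CPM in SoyE seeds (log2 fold change = 2.24 ± 0.59 (SE), edgeR FDR = 0.010), just outside the FDR threshold. By emergence it had 49.4, 53.7 and 80.6 CPM in SoyV seeds, against 4.502, 11.97 and 15.2 CPM in SoyE seeds, and 188, 175 and 127 CPM in ABB seeds, against 31.6, 18.01 and 13.5 CPM in BAA seeds. The mean was thus lower at emergence than in dry seeds in all 4 lines, with the order of sister lines the same.

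Phosphofructokinase commits sugar phosphate to glycolysis, and the PFK3 homolog Glyma.04G086900 had 19.3, 19.4 and 20.7 CPM in SoyV dry seeds, against 5.01, 7.09 and 11.2 CPM in SoyE dry seeds (log2 fold change = 1.60 ± 0.26 (SE), edgeR FDR = 0.00029). In ABB dry seeds the call of this gene (log2 fold change = 1.33 ± 0.30 (SE), edgeR FDR = 0.0082) was lost without any of 13 libraries, with an FDR of up to 0.037 without ABB stage 1 replicate 1. The other PFK3 homolog, Glyma.06G088600, had 129, 161 and 239.5 CPM in SoyV seeds, against 20.4, 44.3 and 45.9 CPM in SoyE seeds at stage 3. Its call in SoyV dry seeds (log2 fold change = 1.27 ± 0.28 (SE), edgeR FDR = 0.0031) was lost without SoyV stage 1 replicate 2 or SoyE stage 1 replicates 1 or 2, with an FDR of up to 0.0125. ACO1, an ethylene-forming oxidase, has a homolog in Glyma.05G222400, which had 354, 279 and 454 CPM in ABB seeds, against 19.6, 25.4 and 21.4 CPM in BAA seeds at stage 3. The ACO1 homolog was a DEG in ABB dry seeds at a low level, with 2.503, 5.03 and 1.97 CPM in ABB dry seeds, against 0.772, 0.434 and 1.63 CPM in BAA dry seeds (log2 fold change = 1.98 ± 0.35 (SE), edgeR FDR = 0.0017), and lost the call without BAA stage 1 replicate 1 (edgeR FDR = 0.0102).

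Cell wall genes were the second group, and 13 of the 15 kept homologs of its listed Arabidopsis genes were among the 200. Polygalacturonase-inhibiting protein (PGIP), a secreted leucine-rich repeat protein that blocks pectin-cutting enzymes, gave 4 of them. The gene with the highest smaller ratio of all 200, Glyma.05G123900 (chromosome 5, 31761509 to 31762737), is a PGIP1 homolog. It had 14.2, 49.5 and 88.4 CPM in SoyV seeds, against 0.201, 0.499 and 1.98 CPM in SoyE seeds at stage 3, and 154, 51.3 and 104 CPM in ABB seeds, against 1.003, 1.503 and 1.73 CPM in BAA seeds, for ratios of 4.77 in the Mips subset and 5.43 in the Mips-MRP subset. In imbibed seeds no library of these 4 lines had more than 1.63 CPM of it.

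Its neighbours on chromosome 5 went with it. Glyma.05G124000 (chromosome 5, 31766562 to 31767866) had 48.8, 100.4 and 192 CPM in SoyV seeds, against 2.21, 6.09 and 9.09 CPM in SoyE seeds, and 197, 116 and 172 CPM in ABB seeds, against 3.24, 5.66 and 7.23 CPM in BAA seeds. Glyma.05G123700 (chromosome 5, 31747856 to 31749159) was near 0 in the sister lines, with 2.53, 7.59 and 12.1 CPM in SoyV seeds, against 0, 0.214 and 0.0508 CPM in SoyE seeds, and 16.8, 7.17 and 15.3 CPM in ABB seeds, against 0.0971, 0.246 and 0.4799 CPM in BAA seeds. The PGIP1 homolog on chromosome 8, Glyma.08G078900 (chromosome 8, 6012234 to 6013469), had 68.3, 114 and 186 CPM in SoyV seeds, against 4.0996, 9.48 and 17.3 CPM in SoyE seeds, and 171, 168 and 203 CPM in ABB seeds, against 16.6, 20.03 and 22.3 CPM in BAA seeds. Read pairs that map to several genes were not counted, so the values of such close copies are uncertain. In dry and imbibed seeds the lowest edgeR FDR among the 4 was 0.285, for Glyma.05G124000 in SoyV dry seeds.

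In imbibed seeds the cell wall DEGs were genes of other kinds. Pectin methylesterase trims methyl groups from pectin, and its homolog Glyma.04G236200 had 8.23, 15.2 and 14.95 CPM in ABB imbibed seeds, against 3.46, 3.07 and 1.57 CPM in BAA imbibed seeds (log2 fold change = 2.46 ± 0.35 (SE), edgeR FDR = 0.00058). In the Mips subset it had 14.7, 11.04 and 16.5 CPM in SoyV imbibed seeds, against 4.56, 3.005 and 3.96 CPM in SoyE imbibed seeds (log2 fold change = 2.14 ± 0.40 (SE), edgeR FDR = 0.0019). The ABB call was kept with each library left out in turn, and the SoyV call was lost without SoyV stage 2 replicate 3 or SoyE stage 2 replicates 2 or 3 (edgeR FDR up to 0.0113). COBRA guides cellulose laying in expanding root cells of Arabidopsis, and its homolog Glyma.19G033500 had 46.6, 70.6 and 40.8 CPM in ABB imbibed seeds, against 14.4, 14.7 and 7.92 CPM in BAA imbibed seeds (log2 fold change = 2.30 ± 0.33 (SE), edgeR FDR = 0.00056). For SoyV over SoyE at stage 2 the COBRA homolog had a log2 fold change of 0.41 with an edgeR FDR of 0.45, and at stage 3 it had 46.6, 56.4 and 91.4 CPM in SoyV seeds, against 2.74, 6.63 and 8.66 CPM in SoyE seeds.

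Expansin-like proteins are relatives of the expansins that let walls slide during growth. The EXLA1 homolog Glyma.11G096700, 1 of the 3 genes at the edge of the choice, had 105, 76.6 and 121 CPM in SoyV imbibed seeds, against 43.5, 51.4 and 52.9 CPM in SoyE imbibed seeds, and 119, 111 and 77.6 CPM in ABB imbibed seeds, against 45.5, 46.8 and 24.4 CPM in BAA imbibed seeds. Both differences passed the test, with log2 fold changes of 1.32 ± 0.31 (SE, edgeR FDR = 0.0091) in SoyV and 1.59 ± 0.27 (SE, edgeR FDR = 0.0031) in ABB. Both calls were near the threshold, and leaving out 1 library ended the SoyV call for 11 of 18 libraries, with an FDR of up to 0.049 without SoyV stage 2 replicate 3. It ended the ABB call for 5 of 18, with an FDR of up to 0.028 without BAA stage 2 replicate 3. The wide ratio rested on 1 library for the EXLB1 homolog Glyma.17G147400 in the Mips-MRP subset, with 54.3, 1.95 and 11.97 CPM in ABB seeds, against 0, 0.137 and 0.864 CPM in BAA seeds at stage 3 and a ratio of 4.15.

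Phenylcoumaran benzylic ether reductases act on lignan-type phenolics, and the gene annotated as such an enzyme, Glyma.04G012300, was a DEG in both *mips1* lines at both early stages. It had 431, 532 and 489.7 CPM in SoyV dry seeds, against 69.4, 74.4 and 85.2 CPM in SoyE dry seeds (log2 fold change = 2.87 ± 0.22 (SE), edgeR FDR = 2.0e-07). In the Mips-MRP subset it had 234, 389 and 321 CPM in ABB dry seeds, against 149, 128 and 126 CPM in BAA dry seeds (log2 fold change = 1.61 ± 0.28 (SE), edgeR FDR = 0.0014). The libraries of sister lines did not overlap at any stage, and after imbibition it had 401, 318 and 394 CPM in SoyV imbibed seeds, against 76.4, 53.99 and 51.9 CPM in SoyE imbibed seeds (log2 fold change = 2.88 ± 0.22 (SE), edgeR FDR = 4.0e-07). The ABB call of imbibed seeds (log2 fold change = 1.90 ± 0.28 (SE), edgeR FDR = 0.00073) was lost without 1 of the 18 libraries, BAA stage 2 replicate 2 (edgeR FDR = 0.0105).

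Transport and trehalose genes gave 8 of 12 kept homologs. Trehalose 6-phosphate, made by TPS enzymes and removed by TPP enzymes, reports sucrose supply in plants. The TPPJ homolog Glyma.05G179800 was nearly absent from SoyE and BAA dry seeds, with 3.42, 9.65 and 3.82 CPM in SoyV dry seeds, against 0.0385, 0.159 and 0 CPM in SoyE dry seeds, and 2.47, 5.07 and 0.936 CPM in ABB dry seeds, against 0.4996, 0 and 0.142 CPM in BAA dry seeds. It was a DEG in both lines in dry seeds, with an edgeR FDR of 2.0e-05 in SoyV and 0.00076 in ABB. At stage 3 it had 19.7, 17.5 and 46.1 CPM in SoyV seeds, against 0.277, 1.57 and 1.498 CPM in SoyE seeds, and 30.2, 52.3 and 27.04 CPM in ABB seeds, against 1.29, 0.683 and 1.57 CPM in BAA seeds.

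The TPS11 homolog Glyma.13G092500 differed between SoyV and SoyE at all 3 stages. It had 87.6, 90.7 and 88.8 CPM in SoyV dry seeds, against 10.5, 35.7 and 23.4 CPM in SoyE dry seeds (log2 fold change = 2.25 ± 0.27 (SE), edgeR FDR = 1.5e-05), and after 8 h 95.5, 112 and 110.0 CPM in SoyV imbibed seeds, against 21.6, 18.98 and 14.02 CPM in SoyE imbibed seeds (log2 fold change = 2.81 ± 0.27 (SE), edgeR FDR = 9.3e-06). Both calls were kept with each library left out in turn. In ABB imbibed seeds it had 57.3, 68.2 and 90.5 CPM, against 26.1, 24.7 and 30.2 CPM in BAA seeds (log2 fold change = 1.61 ± 0.35 (SE), edgeR FDR = 0.021), which did not overlap and did not pass the threshold.

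Sulfate enters cells through SULTR transporters, and the SULTR3;1 homolog Glyma.02G145100 was a DEG in all 4 early comparisons. It had 21.4, 20.1 and 22.4 CPM in SoyV dry seeds, against 9.09, 7.17 and 8.72 CPM in SoyE dry seeds (log2 fold change = 1.55 ± 0.25 (SE), edgeR FDR = 0.00021), and 27.2, 24.03 and 16.3 CPM in ABB dry seeds, against 6.404, 3.77 and 8.95 CPM in BAA dry seeds (log2 fold change = 2.18 ± 0.28 (SE), edgeR FDR = 0.00011). In imbibed seeds it had 40.7, 34.8 and 23.6 CPM in SoyV imbibed seeds, against 15.04, 12.5 and 13.6 CPM in SoyE imbibed seeds (log2 fold change = 1.53 ± 0.25 (SE), edgeR FDR = 0.00060), and 44.3, 43.9 and 42.5 CPM in ABB imbibed seeds, against 18.6, 18.7 and 17.1 CPM in BAA imbibed seeds (log2 fold change = 1.45 ± 0.27 (SE), edgeR FDR = 0.0051). The last of these calls was lost without any 1 of the 6 ABB and BAA libraries of stage 2 (edgeR FDR up to 0.037), and the other 3 were kept with each library left out in turn. By emergence the gene had 33.1, 38.6 and 50.01 CPM in SoyV seeds, against 4.33, 5.24 and 4.01 CPM in SoyE seeds, and 96.4, 66.4 and 109.9 CPM in ABB seeds, against 6.76, 7.76 and 7.36 CPM in BAA seeds.

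AVP1 is a vacuolar proton pump that runs on pyrophosphate. Its homolog Glyma.20G098300 had 245, 232 and 392 CPM in ABB seeds, against 4.79, 5.47 and 8.99 CPM in BAA seeds at stage 3, the wider of its gaps, and 61.9, 112 and 155 CPM in SoyV seeds, against 2.44, 14.6 and 13.1 CPM in SoyE seeds. In imbibed seeds of ABB it was a DEG, with 15.3, 20.1 and 11.6 CPM, against 5.63, 5.48 and 3.59 CPM in BAA seeds (log2 fold change = 1.88 ± 0.31 (SE), edgeR FDR = 0.0021). That call was lost without ABB stage 2 replicate 2 or any BAA stage 2 replicate, with an FDR of up to 0.023 without BAA stage 2 replicate 3. Another AVP1 homolog, Glyma.07G028500, went the other way at stage 3, with ratios of -1.10 in the Mips subset and -1.44 in the Mips-MRP subset.

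Sugar and amino acid carriers differed at emergence only by description. The STP13 hexose carrier homolog Glyma.01G238800 had 77.5, 141 and 230.4 CPM in SoyV seeds, against 6.34, 11.8 and 31.6 CPM in SoyE seeds, and 164, 262 and 250.2 CPM in ABB seeds, against 18.2, 35.9 and 35.4 CPM in BAA seeds. The STP1 homolog Glyma.08G059700 had 3.98, 16.02 and 12.6 CPM in SoyV seeds, against 1.79, 0.499 and 1.599 CPM in SoyE seeds, and 10.3, 15.3 and 20.95 CPM in ABB seeds, against 1.72, 1.83 and 2.02 CPM in BAA seeds. The LHT1 amino acid carrier homolog Glyma.19G076800 had 1.56, 10.5 and 8.47 CPM in SoyV seeds, against 0.704, 1.25 and 1.37 CPM in SoyE seeds, and 35.6, 9.72 and 21.8 CPM in ABB seeds, against 0.129, 1.86 and 1.54 CPM in BAA seeds. Lines did not overlap for these carriers, though SoyV replicate 1 (1.56 CPM) was close to the highest SoyE library for the LHT1 homolog. Of the 36 tested transporter genes of the fixed list outside the 200, 8 were higher and 5 lower in SoyV dry seeds, against 4.34% and 4.03% of all genes. In ABB dry seeds 3 were higher and 0 lower, against 2.79% and 1.17%. In SoyV imbibed seeds 7 were higher and 4 lower, against 1.98% and 1.57%. In ABB imbibed seeds 0 were higher and 1 lower, against 0.371% and 0.425%. The list holds genes that the study had picked from these libraries, so these counts follow in part from how it was made.

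Nitrogen and sulphur genes gave 7 of 11 kept homologs. Nitrate reductase makes the first step of nitrate use, and its NIA1 homolog Glyma.06G109200 had 26.5, 27.5 and 50.1 CPM in SoyV seeds, against 0.528, 2.14 and 2.72 CPM in SoyE seeds at stage 3, and 42.3, 64.3 and 42.1 CPM in ABB seeds, against 2.07, 2.02 and 2.75 CPM in BAA seeds. LBD38, a factor that in Arabidopsis represses nitrate-responsive genes, has a homolog in Glyma.17G162000 that was a DEG in SoyV seeds at both early stages. It had 13.9, 15.7 and 12.04 CPM in SoyV dry seeds, against 2.08, 2.79 and 3.103 CPM in SoyE dry seeds (log2 fold change = 2.63 ± 0.30 (SE), edgeR FDR = 9.7e-06), and 28.6, 31.3 and 40.4 CPM in SoyV imbibed seeds, against 10.5, 12.97 and 12.6 CPM in SoyE imbibed seeds (log2 fold change = 1.75 ± 0.28 (SE), edgeR FDR = 0.00055). Those calls were kept with each library left out in turn. At stage 3 it had 15.4, 29.7 and 34.5 CPM in SoyV seeds, against 1.38, 2.39 and 2.67 CPM in SoyE seeds, and 44.1, 18.5 and 34.9 CPM in ABB seeds, against 7.51, 4.81 and 4.799 CPM in BAA seeds.

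Methionine gamma-lyase breaks methionine down, and its homolog Glyma.13G001200 had 9.13, 14.3 and 16.3 CPM in SoyV imbibed seeds, against 1.65, 0.728 and 1.296 CPM in SoyE imbibed seeds (log2 fold change = 3.68 ± 0.40 (SE), edgeR FDR = 3.6e-05). It was a DEG in SoyV dry seeds too, with 4.96, 7.92 and 7.75 CPM in SoyV dry seeds, against 0.308, 1.31 and 2.49 CPM in SoyE dry seeds (log2 fold change = 2.54 ± 0.39 (SE), edgeR FDR = 0.00016), and both calls were kept with each library left out in turn. At emergence it had 58.5, 74.2 and 86.98 CPM in SoyV seeds, against 5.78, 9.09 and 6.85 CPM in SoyE seeds, and 46.2, 58.4 and 95.2 CPM in ABB seeds, against 15.95, 15.7 and 20.1 CPM in BAA seeds. The aspartate kinase and homoserine dehydrogenase homolog Glyma.05G151100, of the pathway that makes methionine and threonine, had 117, 180.0 and 182 CPM in ABB seeds, against 17.9, 20.03 and 22.1 CPM in BAA seeds at stage 3. In ABB dry seeds it was a DEG at a low level, with 2.54, 5.12 and 1.18 CPM in ABB dry seeds, against 0.182, 0 and 0.746 CPM in BAA dry seeds (log2 fold change = 3.42 ± 0.56 (SE), edgeR FDR = 0.0010).

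Of 19 kept homologs of abscisic acid and stress regulators, 9 were among the 200. Among the factors named in the study's text, the ATAF1 homolog Glyma.06G114000, a NAC factor, had 253, 374 and 455 CPM in SoyV seeds, against 79.6, 79.2 and 139 CPM in SoyE seeds at stage 3, and 585, 714 and 975 CPM in ABB seeds, against 95.2, 166 and 142 CPM in BAA seeds. By edgeR it was no DEG in dry or imbibed seeds of these lines. The study, which used DESeq2, lists it as higher in imbibed seeds of the Mips subset too. ANAC055 is another stress NAC factor, and its homolog Glyma.13G279900 had 151, 125 and 163 CPM in SoyV imbibed seeds, against 73.9, 49.1 and 57.6 CPM in SoyE imbibed seeds (log2 fold change = 1.55 ± 0.24 (SE), edgeR FDR = 0.00043), with the call kept with each library left out in turn. CIPK25 is a kinase of calcium signalling, and its homolog Glyma.04G061500 had 14.5, 14.7 and 12.4 CPM in SoyV dry seeds, against 0.231, 1.35 and 1.2002 CPM in SoyE dry seeds (log2 fold change = 4.18 ± 0.51 (SE), edgeR FDR = 2.0e-05).

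LEA14, a protein of drying tissue, has a homolog in Glyma.07G064700, whose mean CPM at stage 3 was below that of dry seeds in all 4 lines. In imbibed seeds it still had 234, 182 and 238 CPM in SoyV imbibed seeds, against 60.6, 23.9 and 77.3 CPM in SoyE imbibed seeds (log2 fold change = 2.27 ± 0.42 (SE), edgeR FDR = 0.0018), and at stage 3 27.8, 17.8 and 17.9 CPM in SoyV seeds, against 1.51, 1.496 and 5.103 CPM in SoyE seeds. In the Mips-MRP subset at stage 3 it had 22.5, 32.7 and 41.3 CPM in ABB seeds, against 4.04, 5.22 and 2.85 CPM in BAA seeds. Its dry-seed call in SoyV (log2 fold change = 1.79 ± 0.41 (SE), edgeR FDR = 0.0043) was lost without any of 4 libraries, with an FDR of up to 0.0144 without SoyV stage 1 replicate 3.

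RHA2A, a ubiquitin ligase of abscisic acid signalling, has a homolog in Glyma.11G236600, the 1 gene of the 200 that edgeR called lower in a *mips1* line at an early stage. It had 11.5, 21.6 and 8.67 CPM in ABB dry seeds, against 28.1, 43.6 and 29.6 CPM in BAA dry seeds (log2 fold change = -1.05 ± 0.22 (SE), edgeR FDR = 0.0048), a call that was lost without ABB stage 1 replicates 1 or 3 or BAA stage 1 replicate 2 (edgeR FDR up to 0.027). In SoyV imbibed seeds it was higher, with 31.6, 28.7 and 38.3 CPM in SoyV imbibed seeds, against 13.9, 6.05 and 5.43 CPM in SoyE imbibed seeds (log2 fold change = 2.22 ± 0.39 (SE), edgeR FDR = 0.0013), and the call was lost without SoyE stage 2 replicate 3 (edgeR FDR = 0.0113). At stage 3 it had 9.79, 12.97 and 18.1 CPM in SoyV seeds, against 2.84, 1.995 and 4.54 CPM in SoyE seeds, and 28.2, 29.95 and 31.1 CPM in ABB seeds, against 7.73, 7.13 and 7.49 CPM in BAA seeds. The gene thus stood below its sister in dry ABB seeds and above it at emergence.

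Of the 20 genes with the highest smaller ratio, 13 have no Arabidopsis homolog in the annotation used and are given by identifier. Glyma.13G095300 had 43.02, 55.1 and 91.4 CPM in SoyV seeds, against 1.31, 1.995 and 3.02 CPM in SoyE seeds at stage 3, and 121, 70.5 and 153 CPM in ABB seeds, against 2.65, 4.54 and 5.89 CPM in BAA seeds. It was a DEG in SoyV at both early stages, with 31.9, 32.8 and 28.8 CPM in SoyV dry seeds, against 6.16, 7.57 and 12.1 CPM in SoyE dry seeds (log2 fold change = 2.11 ± 0.32 (SE), edgeR FDR = 0.00014) and 45.996, 31.4 and 43.9 CPM in SoyV imbibed seeds, against 8.9998, 10.3 and 7.15 CPM in SoyE imbibed seeds (log2 fold change = 2.48 ± 0.32 (SE), edgeR FDR = 0.00013). Glyma.08G156300 had 12.1, 28.6 and 36.97 CPM in SoyV seeds, against 0.151, 0.285 and 0.6600 CPM in SoyE seeds, and 87.9, 66.8 and 158 CPM in ABB seeds, against 0.679, 0.875 and 0.768 CPM in BAA seeds, so that all 6 libraries of SoyE and BAA were under 1 CPM. In 2MWT, another line with normal MIPS1, it had 4.16, 6.702 and 20.1 CPM. SoyE and BAA were also low in Glyma.05G191100, with 16.4, 30.98 and 49.7 CPM in SoyV seeds, against 0.176, 0.499 and 1.45 CPM in SoyE seeds, and 107, 62.8 and 145 CPM in ABB seeds, against 0.647, 1.26 and 1.38 CPM in BAA seeds.

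The libraries of sister lines were also far apart in Glyma.15G182600, which had 127, 201 and 327 CPM in SoyV seeds, against 7.39, 10.3 and 15.8 CPM in SoyE seeds, and 286, 266 and 282 CPM in ABB seeds, against 10.2, 10.03 and 14.8 CPM in BAA seeds. Glyma.09G153900 had 216, 421 and 542 CPM in SoyV seeds, against 19.6, 44.5 and 56.9 CPM in SoyE seeds, and 601, 587 and 983 CPM in ABB seeds, against 41.7, 46.5 and 44.4 CPM in BAA seeds. It was a DEG in both lines in dry seeds, where it had 59.2, 65.5 and 38.8 CPM in SoyV dry seeds, against 8.28, 1.67 and 1.29 CPM in SoyE dry seeds (log2 fold change = 3.96 ± 0.63 (SE), edgeR FDR = 0.00020), and 20.8, 44.5 and 10.9 CPM in ABB dry seeds, against 1.04, 2.603 and 5.75 CPM in BAA dry seeds (log2 fold change = 3.17 ± 0.47 (SE), edgeR FDR = 0.00045). Both calls were kept with each library left out in turn. Glyma.13G247000 differed between SoyV and SoyE in dry seeds, with 62.1, 77.8 and 57.6 CPM in SoyV dry seeds, against 1.81, 6.45 and 7.11 CPM in SoyE dry seeds (log2 fold change = 3.98 ± 0.52 (SE), edgeR FDR = 3.4e-05), and had 34.2, 45.1 and 64.4 CPM in SoyV seeds, against 0.579, 3.92 and 4.95 CPM in SoyE seeds at stage 3.

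The gap of Glyma.12G048100 in dry seeds was close to presence against absence in both subsets. It had 7.35, 17.4 and 7.79 CPM in SoyV dry seeds, against 0.0385, 0.119 and 0.176 CPM in SoyE dry seeds, and 5.11, 14.6 and 20.99 CPM in ABB dry seeds, against 0.0454, 0 and 0.355 CPM in BAA dry seeds, with an edgeR FDR of 1.7e-05 in SoyV and 7.1e-05 in ABB. The trihelix factor Glyma.19G190000 had 11.4, 22.98 and 8.14 CPM in SoyV dry seeds, against 0.847, 2.27 and 2.25 CPM in SoyE dry seeds (log2 fold change = 3.23 ± 0.56 (SE), edgeR FDR = 0.00046), and 124, 149 and 172 CPM in SoyV seeds, against 2.29, 24.9 and 16.1 CPM in SoyE seeds at stage 3. The glycosyltransferase family 61 gene Glyma.03G134800 was a DEG in both lines in dry seeds at low levels, with 1.98, 4.204 and 3.86 CPM in SoyV dry seeds, against 0.347, 0.996 and 0.703 CPM in SoyE dry seeds (log2 fold change = 2.51 ± 0.32 (SE), edgeR FDR = 2.4e-05), and 0.868, 1.76 and 1.53 CPM in ABB dry seeds, against 0, 0.367 and 0.3196 CPM in BAA dry seeds (log2 fold change = 2.81 ± 0.49 (SE), edgeR FDR = 0.0016).

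The remaining leaders had the same shape at stage 3. Glyma.16G105300 had 90.98, 129.9 and 201 CPM in SoyV seeds, against 9.23, 11.9 and 17.97 CPM in SoyE seeds, and 214, 227 and 275 CPM in ABB seeds, against 12.4, 13.96 and 16.1 CPM in BAA seeds. It was a DEG in SoyV dry seeds, with 4.004, 8.604 and 4.49 CPM in SoyV dry seeds, against 0.2696, 0.717 and 0.586 CPM in SoyE dry seeds (log2 fold change = 3.66 ± 0.41 (SE), edgeR FDR = 7.3e-06), while its call in ABB dry seeds (edgeR FDR = 0.0086) was lost without any of 16 libraries, with an FDR of up to 0.028 without BAA stage 1 replicate 1. Glyma.11G078000 had 25.9, 53.2 and 38.5 CPM in SoyV seeds, against 1.36, 1.89 and 4.67 CPM in SoyE seeds, and 84.6, 87.2 and 89.6 CPM in ABB seeds, against 2.36, 2.81 and 4.45 CPM in BAA seeds. For Glyma.16G105300 and Glyma.11G078000 no library of a normal line reached the lowest of its *mips1* sister. Glyma.16G212200 had 17.2, 79.3 and 106 CPM in SoyV seeds, against 0.8803, 2.89 and 8.33 CPM in SoyE seeds, and 197, 119 and 249 CPM in ABB seeds, against 2.46, 7.95 and 5.98 CPM in BAA seeds. Glyma.14G051800 had 49.05, 65.8 and 101 CPM in SoyV seeds, against 1.53, 3.81 and 7.54 CPM in SoyE seeds, and 60.9, 71.5 and 123 CPM in ABB seeds, against 3.75, 11.8 and 7.93 CPM in BAA seeds. The same order of lines was seen in Glyma.10G215700, with 11.3, 16.2 and 32.5 CPM in SoyV seeds, against 0, 0.356 and 1.14 CPM in SoyE seeds, and 18.8, 22.8 and 34.5 CPM in ABB seeds, against 0.5501, 1.31 and 0.704 CPM in BAA seeds. Glyma.18G290300 had 7.81, 12.3 and 28.7 CPM in SoyV seeds, against 0.0755, 0.855 and 0.787 CPM in SoyE seeds, and 29.5, 18.6 and 30.1 CPM in ABB seeds, against 1.07, 0.8198 and 0.768 CPM in BAA seeds.

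Other dry-seed DEGs of both lines stand outside the 20 leaders. Glyma.14G073300 had 10.2, 20.3 and 12.98 CPM in SoyV dry seeds, against 0.847, 3.505 and 5.53 CPM in SoyE dry seeds (log2 fold change = 2.39 ± 0.55 (SE), edgeR FDR = 0.0043), and 7.61, 18.2 and 15.2 CPM in ABB dry seeds, against 2.63, 4.97 and 5.08 CPM in BAA dry seeds (log2 fold change = 2.05 ± 0.41 (SE), edgeR FDR = 0.0038). Leaving out SoyV stage 1 replicate 2 (edgeR FDR = 0.0194) or SoyE stage 1 replicates 1 or 2 ended the SoyV call, and leaving out BAA stage 1 replicate 1 (edgeR FDR = 0.0191) or ABB stage 1 replicate 3 ended the ABB call. Glyma.19G190200 had 3.5997, 4.17 and 3.03 CPM in SoyV dry seeds, against 0.732, 1.19 and 0.468 CPM in SoyE dry seeds (log2 fold change = 2.45 ± 0.37 (SE), edgeR FDR = 0.00015), and 2.103, 11.6 and 0.591 CPM in ABB dry seeds, against 0, 0 and 0.7101 CPM in BAA dry seeds (log2 fold change = 4.24 ± 0.82 (SE), edgeR FDR = 0.0034). Its ABB call was lost without BAA stage 1 replicates 1 or 2 (edgeR FDR up to 0.0148). Glyma.17G117200 had 2.13, 2.93 and 1.02 CPM in SoyV dry seeds, against 0, 0.398 and 0.615 CPM in SoyE dry seeds (log2 fold change = 2.80 ± 0.58 (SE), edgeR FDR = 0.0018), lost without SoyV stage 1 replicate 2 (edgeR FDR = 0.0106), and an ABB call (edgeR FDR = 0.0075) that was lost without any of 15 libraries, with an FDR of up to 0.041 without ABB stage 1 replicate 1.

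**Figure D4:**
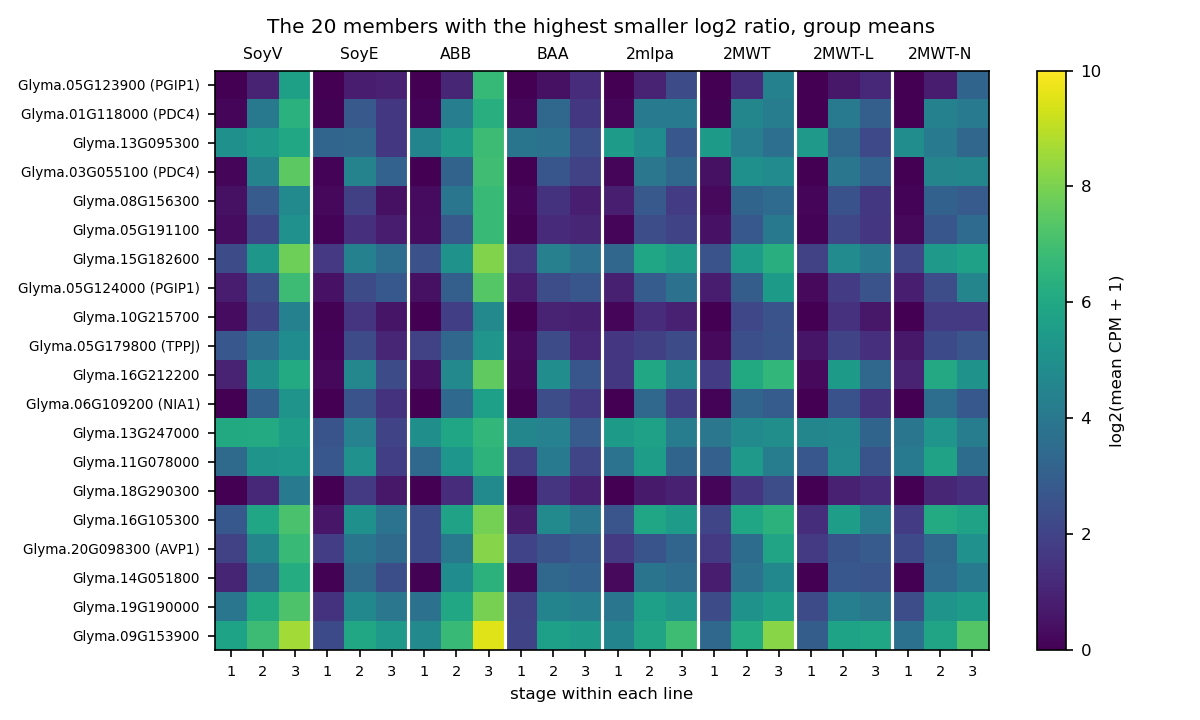
Heat map of the 20 genes with the highest smaller log2 ratio (y axis) at stages 1 to 3 of 8 lines (x axis), with colour for log2(mean CPM + 1) of the libraries of a line and stage, 2MWT-N stage 2 replicate 1 left out. In SoyV and ABB most genes are brightest at stage 3, while in SoyE and BAA stage 3 is as dark as or darker than stage 2 for many of them.

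Over germination, sister lines were furthest apart at emergence, the stage that chose the genes, and SoyV and SoyE were already apart in dry seeds. The median of the 200 genes on the log2(CPM + 1) scale was 1.07 to 1.71 in SoyV dry seeds, against 0.51 to 0.85 in SoyE dry seeds. After 8 h it was 3.72 to 4.15 in SoyV, against 3.04 to 3.22 in SoyE, and at emergence 4.35 to 5.29, against 1.63 to 2.59. In the Mips-MRP subset it was 0.90 to 1.85 in ABB dry seeds, against 0.66 to 0.98 in BAA, then 3.81 to 4.10 in ABB, against 3.00 to 3.43 in BAA, and at emergence 5.55 to 5.64, against 2.34 to 2.53. The ABB and BAA libraries thus overlapped in dry seeds and no longer did so after 8 h. SoyV and ABB thus had their highest medians at stage 3, and SoyE and BAA at stage 2.

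The same division is seen gene by gene. The mean CPM was highest at stage 3 for 150 of the 200 genes in SoyV and 176 in ABB, against 38 in SoyE and 55 in BAA. Over all kept genes stage 3 was highest for 71.4% in SoyV and 71.2% in ABB, against 62.8% in SoyE and 69.5% in BAA. Stage 2 was highest for 31 of the 200 genes in SoyV and 10 in ABB, against 140 in SoyE and 120 in BAA. Over all kept genes stage 2 was highest for 20.1% in SoyV and 20.8% in ABB, against 27.5% in SoyE and 21.6% in BAA. The stage 3 values of these 4 lines chose the genes, so this division is a description. Normal lines of the MRP subset did not all share it. Stage 3 was highest for 119 genes in 2MWT (62 without its replicate 3), 50 in 2MWT-L and 90 in 2MWT-N. The shares of kept genes were 64.2%, 64.1% and 67.5%. Stage 2 was highest for 59, 121 and 88 genes in these lines, against 27.6%, 27.8% and 22.4%. The near-empty library belongs to stage 2 of 2MWT-N.

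**Figure D5:**
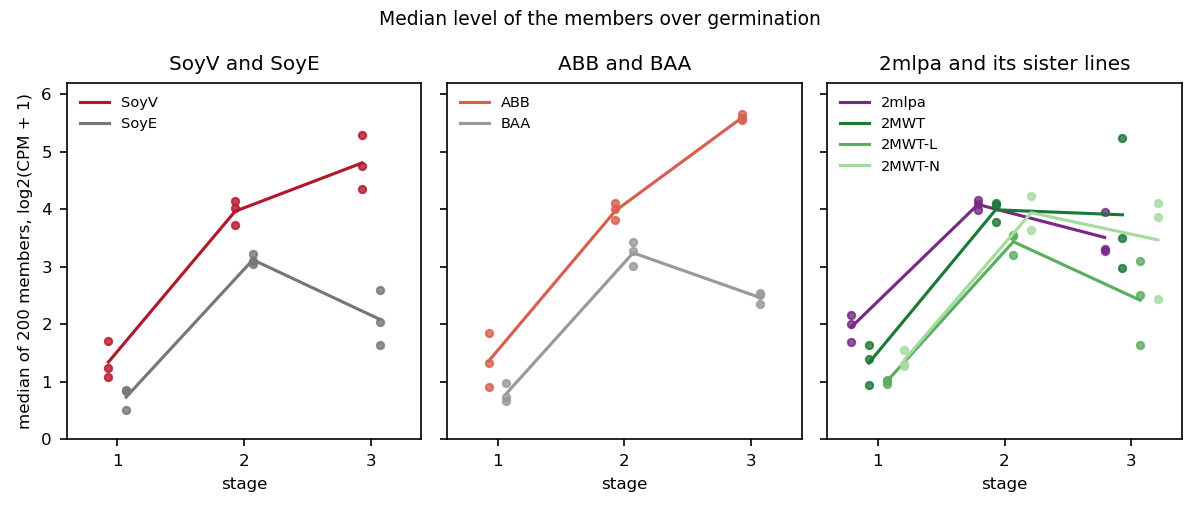
Median of the 200 genes (y axis, log2(CPM + 1)) at stages 1 to 3 (x axis) in SoyV and SoyE, in ABB and BAA, and in *2mlpa* with its sister lines, with points for libraries and lines through the means of a line; 2MWT-N stage 2 replicate 1 is left out. SoyV and ABB are highest at stage 3, SoyE and BAA at stage 2, and 2MWT at stage 3 spreads between 2.97 and 5.24.

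In 2MWT, a line without the mutations whose libraries the choice did not use, many of the genes were higher at stage 2 than in dry seeds. Dry seeds were milled, whereas stage 2 seeds were sterilized, dried overnight and imbibed, and lost their seed coats and radicles. Imbibition, handling and the change of tissue therefore cannot be told apart in this step. Of 199 that could be tested, 90 were higher at stage 2 than at stage 1, or 45.2%, against 26.8% of all genes, and 25 were lower, or 12.6%, against 17.8%. From stage 2 to emergence 18 were higher, or 9.05%, against 12.6%, and 26 lower, or 13.1%, against 13.7%, shares close to those of all genes. Without 2MWT stage 3 replicate 3 the shares of this last step were 2.02% higher and 27.3% lower. Without 2MWT stage 3 replicate 1 the share higher was 17.1%, and without 2MWT stage 2 replicates 1, 2 or 3 it was 5.53%, 4.5% and 4.52%. The steps share the stage 2 libraries. By both steps, 9 genes went up and then down, against 3.09% of all genes, and 75 went up and were not called after that, against 20.4%. By group, 7 of 12 tested cell wall genes, 5 of 7 nitrogen and sulphur genes, 4 of 8 transport and trehalose genes, 2 of 12 fermentation genes and 1 of 9 abscisic acid and stress genes were higher at stage 2 than at stage 1 of 2MWT.

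The 2MWT libraries of stage 3 stood apart from each other. Replicate 3 was the highest of the 3 for 191 of the 200 genes, against 36.4% of all kept genes, and its median was 5.24, against 2.97 and 3.49 in replicates 1 and 2. It exceeded the mean of the other replicates by a median of 1.76 log2 units over the 200 genes, and by -0.05 over all kept genes. For 157 genes it lay above the lowest SoyV library of the same stage, and for 193 above every SoyE library. The PGIP1 homolog Glyma.05G123900 had 2.86, 5.41 and 52.4 CPM in the 3 libraries of 2MWT, the hexose carrier homolog Glyma.01G238800 30.2, 40.6 and 338 CPM, and the AVP1 homolog Glyma.20G098300 15.1, 20.9 and 134 CPM. For each of these genes, the replicate 3 value of a line without the mutations lay above the lowest of the 3 SoyV libraries.

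Libraries of several other lines also stood apart in these genes. Replicate 3 was the highest of its line at stage 3 for 170 genes in SoyV, 152 in SoyE and 181 in 2MWT-L, against 24.1%, 30.9% and 30.7% of kept genes in these lines. It was the highest for 115 genes in ABB, 89 in BAA and 109 in *2mlpa*, against 26.3%, 32.2% and 40.9% of kept genes, and the medians of ABB and of BAA differed little between replicates. Replicate 1 of 2MWT-N was the highest for 0 genes, against 44.6% of kept genes. The median of the 200 genes at stage 3 was 3.27, 3.31 and 3.94 in *2mlpa*, 2.97, 3.49 and 5.24 in 2MWT, 1.64, 2.51 and 3.09 in 2MWT-L, and 2.43, 4.10 and 3.86 in 2MWT-N. So the median of these genes differed between seed samples of 1 line in SoyV, SoyE and the MRP subset, and little in ABB and BAA.

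The libraries of *2mlpa*, which has both MRP mutations and normal MIPS1, give another mutant that the choice did not use. Its comparisons share the *2mlpa* libraries. Of 199 genes tested, edgeR called 0 higher in *2mlpa* than in all 3 sisters at stage 3, against 0.0797% of all genes, and DESeq2 called 0. At an unadjusted p under 0.05 in all 3 comparisons there were 5, against 2.78% of all genes. At stage 2 edgeR called 0, against 0.137%, with 13 at an unadjusted p under 0.05, against 3.95%, and 0 by DESeq2. At stage 1 it called 1, Glyma.09G029900, against 0.255%, and 0 without *2mlpa* stage 1 replicate 2 or 2MWT-N stage 1 replicates 1 or 2. None was lower than in all 3 sisters at any stage. In stage order 0.175%, 0.204% and 0.0957% of all genes were, with 0 of the 199 by DESeq2 at each stage. At an unadjusted p under 0.05, 0, 0 and 1 of the 199 were, against 3.88%, 4.03% and 2.61% of all genes. A p that misses the threshold does not show that the lines were alike.

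The sisters themselves differed at stage 3, which sets what each comparison can show. Against 2MWT-L, 13 genes were higher in *2mlpa*, or 6.53%, against 1.25% of all genes, and 0 lower, against 0.864%, with 2 lower at an unadjusted p under 0.05 and 0 by DESeq2, at a median log2 fold change of 1.17. That share ran between 1.5% and 14.6% with each library left out in turn, lowest without *2mlpa* stage 3 replicate 2 and highest without 2MWT stage 3 replicate 3. Against 2MWT, 2 were higher (Glyma.09G029900 and Glyma.13G001200), against 0.925%, and 2 lower (Glyma.19G218300 and Glyma.11G051900), against 1.06%, at a median of -0.85. Without 2MWT stage 3 replicate 3 these were 6 and 0, and without 2MWT stage 3 replicate 1 they were 0 and 12. Without 2MWT stage 3 replicate 2 or *2mlpa* stage 3 replicates 2 or 3 no gene was higher and at most 1 was lower. Against 2MWT-N, 0 were higher, against 0.258%, with 8 at an unadjusted p under 0.05, against 6.01% of all genes, and 0 by DESeq2. In the same comparison 1 was lower, Glyma.13G070900, against 0.246%, at a median of -0.13. That count was 0 without 2MWT-N stage 3 replicate 2 or *2mlpa* stage 3 replicate 3. In 2MWT-L 22 of the genes were lower than in 2MWT, or 11.1%, against 0.443% of all genes, with a median of -1.81, but 0 were so without 2MWT stage 3 replicate 3 or without 2MWT-L stage 3 replicates 1 or 2, and 90 without 2MWT stage 3 replicate 1. None was higher in 2MWT-L than in 2MWT, against 0.112%, with 0 at an unadjusted p under 0.05, against 6.75%, and 0 by DESeq2. Between 2MWT-N and 2MWT edgeR called 0 higher, against 0.0861%, and 0 lower, against 0.128%, with 1 and 0 by DESeq2. At an unadjusted p under 0.05 there were 3 and 30, against 3.43% and 5.44% of all genes.

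Set against the mean of its 3 sisters, *2mlpa* had more genes above than below before emergence. That mean includes the near-empty library at stage 2 and 2MWT replicate 3 at stage 3, and neither was left out. In this comparison 28 genes were higher at stage 1, against 3.23% of all genes, and 0 lower, against 1.18%, with 0 lower at an unadjusted p under 0.05, at a median log2 fold change of 0.82, against 0.05 over all genes. At stage 2, 19 were higher, against 2.0%, and 0 lower, against 1.48%, with 6 lower at an unadjusted p under 0.05, at a median of 0.61, against -0.04 over all genes. At stage 3, 6 were higher, against 1.4%, and 0 lower, against 0.654%, with 16 lower at an unadjusted p under 0.05, at a median of -0.02, against 0.00 over all genes. The estimate was above 0 for 165 of 199 genes in dry seeds, 166 in imbibed seeds and 98 at emergence. The share over all genes was not taken for these estimates or for the unadjusted p of this comparison. Against each of the 3 sisters at once, the estimate was above 0 for 120, 124 and 34 genes in stage order. Over all genes that share was 29.6%, 29.9% and 30.8%. In CPM the 3 *2mlpa* libraries lay above all sister libraries for 32 genes at stage 1, against 2.6% of kept genes, for 37 at stage 2, against 3.13%, and for 0 at stage 3, against 2.47%. They lay below all sister libraries for 1 gene, Glyma.15G071300, against 1.84%, for 13, against 22.3%, and for 0, against 3.36%, at the 3 stages in order. In these CPM counts the near-empty library was left out and 2MWT stage 3 replicate 3 was kept.

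The 6 genes higher in *2mlpa* than the mean of its sisters at emergence, listed after their values were seen, were Glyma.09G029900, Glyma.04G012300, Glyma.02G243600, Glyma.10G284500 and the homologs of methionine gamma-lyase and of the glutamate synthase GLT1. The methionine gamma-lyase homolog Glyma.13G001200 had 94.5, 351 and 391 CPM in *2mlpa* seeds, against 39.02, 36.9 and 121 CPM in 2MWT, 73.3, 48.02 and 50.1 CPM in 2MWT-L and 41.2, 71.3 and 189 CPM in 2MWT-N. It was a DEG against 2MWT (log2 fold change = 2.03 ± 0.48 (SE), edgeR FDR = 0.0089) and against 2MWT-L (log2 fold change = 2.29 ± 0.49 (SE), edgeR FDR = 0.0038) and not against 2MWT-N (log2 fold change = 1.47 ± 0.48 (SE), edgeR FDR = 0.15). The call against 2MWT was lost without any of 19 of the 36 libraries, with an FDR of up to 0.080 without 2MWT stage 3 replicate 2, and that against 2MWT-L without any of 5, with an FDR of up to 0.032 without *2mlpa* stage 3 replicate 3. Glyma.09G029900, which has no homolog in the annotation used, had 11.6, 32.1 and 46.8 CPM in *2mlpa* seeds, against 4.73, 2.23 and 9.99 CPM in 2MWT, 1.68, 1.65 and 2.56 CPM in 2MWT-L and 4.02, 12.9 and 20.4 CPM in 2MWT-N. In ABB seeds of that stage it had 278, 73.4 and 89.6 CPM, against 1.72, 1.31 and 0.768 CPM in BAA seeds.

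The ADH1 homolog Glyma.04G213900 had the lowest fold changes against all 3 sisters. It had 2.64, 0.986 and 0.315 CPM in *2mlpa* seeds, against 7.13, 11.9 and 12.5 CPM in 2MWT, 0.456, 3.44 and 9.25 CPM in 2MWT-L and 2.203, 10.3 and 3.86 CPM in 2MWT-N. The log2 fold changes were -3.02 ± 0.83 (SE, edgeR FDR = 0.022) against 2MWT, -1.70 (edgeR FDR = 0.19) against 2MWT-L and -2.01 (edgeR FDR = 0.30) against 2MWT-N, none past the threshold. Next in this order came Glyma.18G022000 and Glyma.17G117100, which have no annotation here. Glyma.17G117100 had 9.62, 9.22 and 2.96 CPM in *2mlpa* seeds, against 9.07, 34.8 and 27.7 CPM in 2MWT. Glyma.18G022000 had 0.819, 0.317 and 0.6304 CPM in *2mlpa* seeds, against 1.76, 2.35 and 3.58 CPM in 2MWT, and in ABB seeds it had 29.3, 19.7 and 13.6 CPM, against 0.388, 0.765 and 0.384 CPM in BAA seeds.

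The lactate dehydrogenase homolog Glyma.01G210400 had 4.06, 5.98 and 20.2 CPM in *2mlpa* seeds, against 2.89, 4.98 and 42.5 CPM in 2MWT, 0.0854, 0.324 and 1.25 CPM in 2MWT-L and 1.12, 15.3 and 6.75 CPM in 2MWT-N. Its difference from 2MWT-L (log2 fold change = 4.16 ± 0.94 (SE), edgeR FDR = 0.0058) was lost without any of 3 libraries, with an FDR of up to 0.061 without *2mlpa* stage 3 replicate 3. The PDC1 homolog Glyma.07G153100 had 505, 512 and 263 CPM in *2mlpa* seeds, overlapping 2MWT with 269, 284 and 734 CPM. The PDC4 homolog Glyma.01G118000 had 14.3, 20.5 and 15.9 CPM in *2mlpa* seeds, against 8.47, 9.05 and 34.3 CPM in 2MWT, again overlapping. For the phenylcoumaran benzylic ether reductase homolog Glyma.04G012300, *2mlpa* had 205, 675 and 464 CPM, against 185, 184 and 327 CPM in 2MWT, 97.1, 121 and 146 CPM in 2MWT-L and 155, 257 and 184 CPM in 2MWT-N. Of those only the gap to 2MWT-L passed the test (log2 fold change = 1.90 ± 0.33 (SE), edgeR FDR = 0.00048), and it was lost without *2mlpa* stage 3 replicate 2 (edgeR FDR = 0.0102).

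The 200 genes lie on all 20 chromosomes, with 4 on chromosome 15 to 19 on chromosome 13, and made up 0.34% to 1.07% of the kept genes of a chromosome. There were 11 pairs of neighbours on the gene list, among them the PGIP1 homologs of chromosome 5. Within 5 Mb of MIPS1 (chromosome 11, 33319226 to 33322244), 2 of 267 kept genes were among the 200. They were the RHA2A homolog Glyma.11G236600 (chromosome 11, 33146298 to 33147281) and Glyma.11G235000 (chromosome 11, 33004038 to 33004941). Glyma.11G235000 was a DEG in both lines in dry seeds at low levels, with 4.04, 5.54 and 2.56 CPM in SoyV dry seeds, against 0.116, 0.558 and 0.8197 CPM in SoyE dry seeds (log2 fold change = 3.24 ± 0.52 (SE), edgeR FDR = 0.00021), and 1.67, 4.45 and 1.77 CPM in ABB dry seeds, against 0.908, 0.801 and 0.639 CPM in BAA dry seeds (log2 fold change = 1.96 ± 0.30 (SE), edgeR FDR = 0.00061).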

How the data were processed

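The deposited tables hold raw counts, 1 per read pair, summed over the exons of a gene. Per the methods and the submitters' processing notes, the authors used Skewer for trimming, STAR 2.5.2b for alignment to Wm82.a2.v1 and featureCounts 1.5.1 for counting, without strand and without pairs that map to several genes or overlap several genes. The authors called their DEGs with DESeq2 1.22.2. The 2 count tables hold 56044 genes in 72 libraries, all of which were mapped to samples by their labels, so overlapping genes and close copies are uncertain. Counts per gene do not read the mutant alleles.

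CPM is the count divided by the library total, times 1e6. It is not per length, so levels were compared between libraries and not between genes. Precision follows from the totals (20295984 to 39759526 in 71 libraries, 12679 in the other one) and from 3 replicates per group. Tests were edgeR 4.0.16 quasi-likelihood fits in R 4.3.3 (TMM scaling, mean normalized count over 10, Benjamini-Hochberg over all genes tested), 1 fit each for SoyV and SoyE (31682 genes), ABB and BAA (31307 genes) and the MRP subset (31363 genes), with all stages in a fit and no replicate block. Same-numbered libraries deviated together in every pair only in SoyV and SoyE at stage 1, as seen in the counts and not from the labels. SE was taken as the size of the log2 fold change over the root of the F statistic. Fits were tested on simulated counts first.

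Members and lists were chosen with earlier results of these data known. By rule the text names the 20 genes with the highest smaller ratio, up to 10 genes that were DEGs in both *mips1* lines at stage 1 and at stage 2, the most abundant of lists with 3 or more members, members named in the study's text, 3 genes on either side of the limit, the 3 with the lowest fold changes in *2mlpa* at stage 3 and up to 3 within 5 Mb of MIPS1. Alternatives were DESeq2 1.42.0, other scalings, filters, thresholds and rules, a replicate block, each comparison's own libraries, and leaving out each library in turn. The comparisons with single sister lines, the counts of lower genes and the leaving-out of 2MWT stage 3 replicate 3 from the stage means were added after seeing the data. No sequence is given, since no genome was used here.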

Additional observations from a re-analysis of the deposited data

Results flagged for a closer look

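The Arabidopsis PP2C24 homolog Glyma.01G225100, of a family of phosphatases that restrain abscisic acid signalling, is listed because its libraries moved in opposite directions in dry seeds of the 2 *mips1* lines. It had 338, 258 and 292 CPM in SoyV dry seeds, against 375, 367 and 355 CPM in SoyE dry seeds, and every SoyV library lay below every SoyE library. It had 249, 381 and 342 CPM in ABB dry seeds, against 192, 249 and 184 CPM in BAA dry seeds, and every ABB library lay above every BAA library, although the closest of them both round to 249 CPM. The log2 fold change was -0.08 ± 0.53 (SE, edgeR FDR = 0.95) for SoyV over SoyE and 1.03 ± 0.27 (SE, edgeR FDR = 0.018) for ABB over BAA. Neither passed the threshold, and the difference between them was not tested.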

How the results depend on the processing

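Shares below are of the 200 genes that were tested. The share of all genes under the same alternative can change too and is not given beside them. These values therefore show how the shares of the 200 genes depend on the setting, and not how far they stand from all genes. Of the share higher in SoyV dry seeds (31.5%), no alternative moved the value by over 1.5 times, and it ran between 24.5% and 33% with each library left out in turn. The other shares depended more on the setting, and the cause was not tested. In SoyV imbibed seeds 15% became 24.5% by DESeq2, 26% without a filter and 29% at an FDR of 0.05, and 7.5% to 20.5% with a library left out. In ABB dry seeds 14.0% became 24% by DESeq2, 27% at an FDR of 0.05, 6.11% from stages 1 and 2 only and 0.0% from its own 6 libraries, and 7.5% to 18.5% with a library left out. In ABB imbibed seeds 6.5% became 16.5% by DESeq2, 12.5% without a filter, 16% at an FDR of 0.05, 38.9% from its own 6 libraries, 3.33% from stages 1 and 2 only and 3.75% with 400 genes chosen, and 2.0% to 11.5% with a library left out. For *2mlpa* over all 3 sisters 0.503% at stage 1 became 1.52% by DESeq2, 3.0% without a filter, 1.49% from its own libraries, 5.53% at an FDR of 0.05, 1.01% and 0.254% with 100 and 400 genes chosen and 14.1% against the mean of the sisters, and 0.0% to 2.5% with a library left out. At stage 2, 0.0% became 7.22% from its own libraries, 0.254% with 400 genes and 9.55% against the mean, and stayed at 0.0% with a library left out. At stage 3, 0.0% became 3.02% against the mean, and 0.0% to 1.01% with a library left out. In 2MWT the share higher at stage 2 than stage 1 (45.2%) ran between 33% and 49.5% with a library left out, and the share lower (12.6%) between 9.55% and 14.1%, with 8.08% for 100 genes and 8.04% in 2MWT-N. The share higher at stage 3 than stage 2 (9.05%) became 16.7% by DESeq2, 21.5% with RLE scaling, 2.5% from its own libraries, 20.1% at an FDR of 0.05, 2.01% in 2MWT-L and 2.51% in 2MWT-N, and 2.02% to 17.1% with a library left out. The share lower (13.1%) became 6.06% with 100 genes, 33.2% in 2MWT-L and 20.6% in 2MWT-N, and 9.05% to 27.3% with a library left out. Same-numbered libraries deviated together in all 3 pairs of SoyV and SoyE at stage 1 (correlations of 0.17, 0.23 and 0.52), in 0 of 3 pairs of ABB and BAA at stages 1 and 3, in 11 of 18 pairs of the MRP subset at stage 3, and in 25 of 72 pairs in all (over 0.1, between -0.46 and 0.61). With a replicate block the share in SoyV dry seeds was 33.5%, that in ABB dry seeds 10.5%, that higher in *2mlpa* than 2MWT-L at stage 3 10.6%, and that higher at stage 3 than stage 2 in 2MWT 6.03%. The block ended 7 of 76 calls of named genes, each of them in ABB. Leaving out a stage 3 library from the rule kept 178 to 195 of the 200 genes, and a pseudocount of 0.5 or 5 CPM, TMM-scaled CPM or a minimum of 10 CPM kept 184, 145, 192 and 146. Of 76 calls of named genes, 40 were kept with each library left out in turn and 48 were lost under at least 1 alternative, and 0 of 2103 values reversed. From each comparison's own libraries 34 of 75 tested calls of named genes were lost, and from stages 1 and 2 only 17 of 68 were lost. In 2MWT, stage 3 was the stage of the highest mean for 119 genes, against 64.2% of all kept genes, and for 62 without 2MWT stage 3 replicate 3. Upper-quartile scaling could not be computed for the MRP subset because the near-empty library's upper quartile is 0.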

Other observations

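Counts of members in lists made from product names in the study's annotation are given as a description, against 0.783% of all kept genes. At that share a list of this size holds fewer than 1 member, so a count of 0 says nothing about the 200 genes. Ubiquitin ligases gave 1 of 37 kept genes, Glyma.01G131800, UDP-glycosyltransferases gave 2 of 22, Glyma.03G134800 and Glyma.10G201700, and protein kinases gave 0 of 51. The names do not reach every member of a family. By the factor families of the annotation, 10 of the 200 genes were transcription factors, among them the WRKY factor Glyma.08G142400 and the ERF factor Glyma.19G213100. These lists hold genes that the study had picked from these libraries.

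Genes with the same Arabidopsis homolog as a member did not all have its order of lines at emergence. The other AVP1 homolog is given above. Of the STP1 homologs, Glyma.08G059700 was among the 200, whereas Glyma.01G067600 had log2 ratios of -0.66 for SoyV over SoyE and -1.09 for ABB over BAA. LBD41, a gene that answers low oxygen in Arabidopsis, had no homolog among the 200. Its homolog Glyma.07G091600 had ratios of 0.32 for SoyV over SoyE and -0.15 for ABB over BAA. Its other kept homologs had both ratios above 0. In the same order these were 1.99 and 1.63 in Glyma.13G046300 and 1.82 and 1.64 in Glyma.19G046300. They were 0.65 and 0.55 in Glyma.08G365100 and 0.67 and 0.40 in Glyma.18G297100. HB1, listed in the same low-oxygen group, had no homolog among the 200 either. Its homolog Glyma.11G121700 had 0.47 for SoyV over SoyE and -0.30 for ABB over BAA, and Glyma.11G121800 had 0.63 and 0.22. The ATAF1 homolog Glyma.04G249000 had 1.74 for SoyV over SoyE and 1.92 for ABB over BAA, just under the limit of the choice.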
